A study of Arabidopsis thaliana with 7 samples.

Results

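ATP citrate lyase and acetyl-CoA synthetase are separate sources of acetyl-CoA in the plant cell, and their transcripts were followed in Arabidopsis thaliana seedlings exposed to quantum dots of cadmium sulfide (CdS QDs), which are semiconductor nanocrystals. The 4 genes described are ACLA-1 (AT1G10670), ACLA-2 (AT1G60810) and ACLB-1 (AT3G06650), which encode subunits of the lyase, and ACS (AT5G36880), which encodes the plastid synthetase. They were chosen by function from 13286 annotated genes, with earlier results of these same arrays known, so their levels are given as a description with no p-value. Each was read by 1 probe set whose name carries no suffix for shared probes.

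The seedlings were of accession Ler-0. WT was measured at 0, 40 and 80 mg/L CdS QDs, the highest dose being its minimum inhibitory concentration per the labels, and the mutants atnp01 and atnp02 at 0 and 80 mg/L. Both mutants are labelled as tolerant of CdS QDs, and which genes they carry mutations in is not given in the sources used here. All plants were germinated for 14 days on Murashige and Skoog medium and then kept for 21 days, at 24 °C, on the same medium with the stated dose. Each of the 7 groups was a single Affymetrix ATH1 array made from 0.1 g of plant material, and how many plants that was is not given in the sources used here. No group had a replicate, so a difference between 2 arrays carries no error of its own. The spread over the 3 lines stands in for it below. The p-values then rest on the spread between these lines, drawn towards that of other genes of like intensity. In such bulk samples, fewer cells of a type and less RNA per cell cannot be told apart.

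Acetyl-CoA does not cross organelle membranes freely, so each compartment makes its own. In the cytosol, ATP citrate lyase splits citrate exported from mitochondria into acetyl-CoA and oxaloacetate. The plant enzyme is built from A and B subunits, encoded in Arabidopsis by the genes ACLA-1 to ACLA-3 and ACLB-1 and ACLB-2. Its product feeds fatty acid elongation for waxes, the mevalonate pathway to sterols, and flavonoids. In plastids, the main supply for fatty acid synthesis is the plastid pyruvate dehydrogenase complex, while ACS activates acetate, which can come from pyruvate through pyruvate decarboxylase and aldehyde dehydrogenase.

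The 3 lyase genes were lower on every exposed array than on every unexposed array, whereas ACS was lower on the WT array at 80 mg/L and almost level on the others. At 80 mg/L, 18.5% of the 13286 annotated genes lay below all unexposed arrays in this way. ACLB-1, the B subunit, differed most, by -0.89 ± 0.09 on the log2 scale at 80 mg/L (mean ± SD over 3 lines), which is 0.54 of the unexposed level if a log2 difference is read as a fold. ACLA-1 and ACLA-2, which encode A subunits, differed by -0.58 ± 0.22 and -0.53 ± 0.19, or 0.67 and 0.69 of the unexposed level. ACS differed by -0.12 ± 0.17, a mean smaller than its spread.

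ACLB-1 was at 7.19 in WT without QDs, 6.36 at 40 mg/L and 6.38 at 80 mg/L (log2, as deposited). In atnp01 it was at 7.02 and 6.04, and in atnp02 at 7.06 and 6.18, at 0 and 80 mg/L. The 3 unexposed arrays lay within 0.16 of each other, and the 4 exposed arrays all lay below them. In WT the whole difference was already there at 40 mg/L, where it was -0.83, against -0.80 at 80 mg/L, and the step from 40 to 80 mg/L was 0.03. Of 1866 genes that reached the floor in that pair, 55.0% had a lower value for this step, so the small step does not set ACLB-1 apart. At 80 mg/L the differences were -0.99 in atnp01 and -0.88 in atnp02, with an SD of 0.09 over the responses of the lines against 0.08 over their unexposed levels.

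ACLA-1 was at 7.84, 7.56 and 7.47 in WT at 0, 40 and 80 mg/L. It was at 7.96 and 7.15 in atnp01, and at 7.91 and 7.36 in atnp02. Groups did not overlap here either, since the highest exposed value, 7.56, was below the lowest unexposed value, 7.84. The unexposed arrays spanned 0.12. The difference at 80 mg/L ranged more widely than for ACLB-1, from -0.37 in WT through -0.56 in atnp02 to -0.81 in atnp01. In WT, -0.28 was present at 40 mg/L, and the further -0.09 to 80 mg/L was less than the range of the unexposed arrays.

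ACLA-2 stayed below log2 6, the floor set for testing, on all arrays, so it is described outside the fit. It was at 5.06, 4.73 and 4.73 in WT, at 4.88 and 4.18 in atnp01, and at 4.96 and 4.41 in atnp02. The WT values at 40 and 80 mg/L were identical as deposited, and both differed from the unexposed array by -0.33. The differences at 80 mg/L were -0.70 in atnp01 and -0.55 in atnp02, the order of lines seen for ACLA-1.

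ACS was at 6.46 in WT without QDs, 6.49 at 40 mg/L and 6.14 at 80 mg/L. It was at 6.50 and 6.46 in atnp01, and at 6.46 on both atnp02 arrays. Only the WT array at 80 mg/L stood off, by -0.32 from the unexposed and by -0.35 from the 40 mg/L array, and exposed and unexposed arrays overlapped. Of its 7 values 4 were identical as deposited, those of WT and atnp02 at 0 mg/L and of both mutants at 80 mg/L. Among 2132 genes that reached the floor, 376 (17.6%) had 2 or more identical arrays and 16 (0.8%) had 4 or more. RMA builds a value from a term shared by all arrays and a term of the array, and whether the repeats come from that step was not tested. A level profile of ACS therefore sets no finer bound on its change than these values give.

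**Figure D1:**
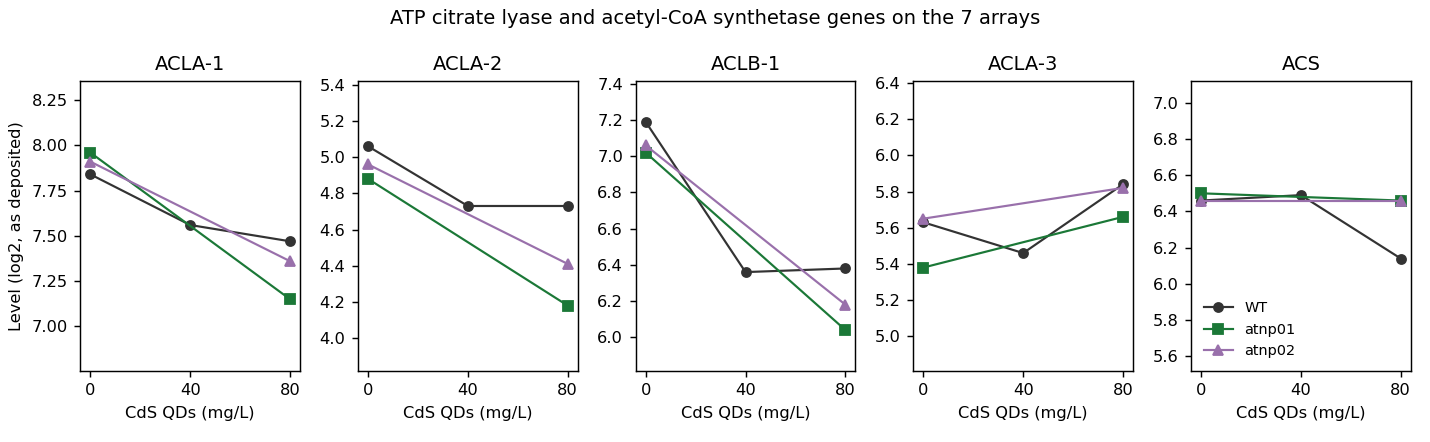
Level (log2, as deposited) against dose of CdS QDs (mg/L) for the 4 genes and for ACLA-3, 1 point per array, lines joining the arrays of WT, atnp01 and atnp02. All panels span the same log2 range. ACLA-1, ACLA-2 and ACLB-1 are lower on each exposed array, ACLA-3 is higher at 80 mg/L, and ACS is level except for WT at 80 mg/L, at 6.14.

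ACLA-3 (AT1G09430), a further A-subunit gene that is not among the 4 and was named after its values were seen, went the other way. It was at 5.63, 5.46 and 5.84 in WT, at 5.38 and 5.66 in atnp01, and at 5.65 and 5.82 in atnp02. At 40 mg/L WT differed by -0.17. At 80 mg/L it was higher by 0.22 ± 0.05 (SD, 3 lines), while its unexposed arrays spanned 0.26. The arrays at 80 mg/L all lay above the unexposed arrays, but barely, the nearest being 5.66 against 5.65. Of all annotated genes 14.8% lay above in this way. Relative to the change in ACLA-3, the change at 80 mg/L was lower by -0.80 ± 0.26 for ACLA-1, -0.74 ± 0.22 for ACLA-2 and -1.11 ± 0.13 for ACLB-1. ACLA-3 stayed below the floor, so this contrast has no test. The A-subunit genes are related in sequence, and whether their probes share targets was not analysed here. ACLB-2 (AT5G49460) was not analysed here, because the platform annotation used names no probe set for it.

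All 3 lyase genes of the 4 had non-overlapping, lower levels at 80 mg/L. Of the 2098 genes that reached the floor on the 6 arrays at 0 and 80 mg/L, 34.1% did so, and the non-overlap by itself does not set them apart. None of the 4 genes was 2-fold apart between doses in any of the lines. Among genes at the floor the share at least 2-fold apart was 8.07% in WT at 80 mg/L, 7.34% in WT at 40 mg/L, 11.3% in atnp01 and 11.5% in atnp02, and for WT the step from 40 to 80 mg/L was 2-fold in 2.47% of genes.

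Sizes were then set against all genes in a linear model with line and dose as terms, fitted with limma to those 6 arrays for the 2098 genes. The coefficient for 80 mg/L was -0.89 (SE 0.07) for ACLB-1, -0.58 (SE 0.10) for ACLA-1 and -0.12 (SE 0.09) for ACS, against a median of -0.03 over all genes tested. Of these genes 4.1% had a lower coefficient than ACLB-1, 9.96% than ACLA-1 and 39.9% than ACS. The fit placed 29.3% of genes lower and 27.8% higher at a Benjamini-Hochberg adjusted p under 0.05, and ACLB-1 and ACLA-1 would be among the former. Since the 4 genes were picked with this contrast in view, nothing is read from that count.

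**Figure D2:**
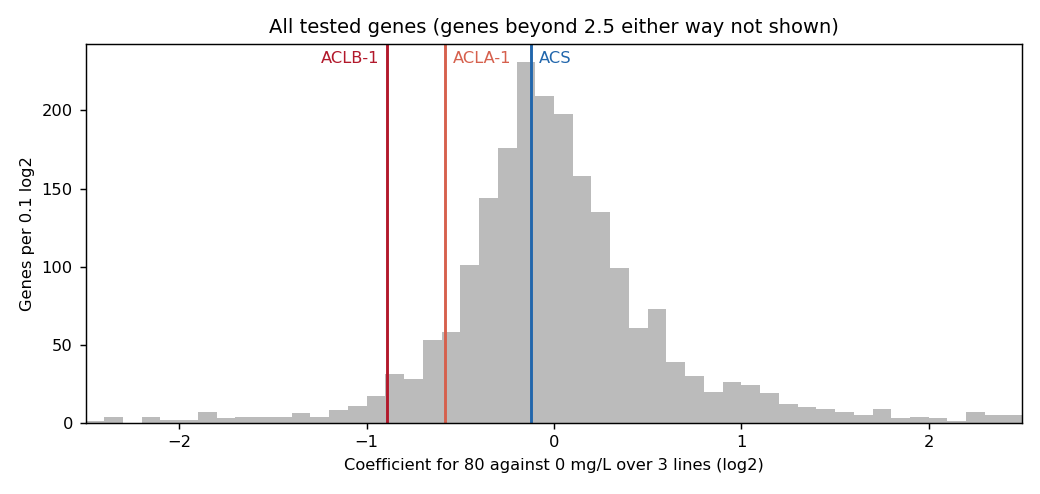
Number of genes per 0.1 log2 (vertical axis) by their coefficient for 80 against 0 mg/L over the 3 lines (horizontal axis, log2), for 2098 tested genes, of which 24 lie beyond the axis limit of 2.5. Vertical lines mark ACLB-1 (-0.89), ACLA-1 (-0.58) and ACS (-0.12), the last close to the middle of the distribution.

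The sources of acetyl-CoA were compared through their changes, because levels of different probe sets are not on a common scale. At 80 mg/L the change in ACLB-1 was below that in ACS by -0.48 in WT, -0.94 in atnp01 and, for atnp02, -0.88, a mean of -0.77 ± 0.25 (SD, 3 lines). For ACLA-1 the same quantity was -0.05 in WT, -0.76 in atnp01 and, for atnp02, -0.56, and its mean of -0.46 ± 0.37 was little larger than its spread. For ACLA-2 it was -0.01, -0.66 and -0.55, with a mean of -0.40 ± 0.35. Thus in WT at 80 mg/L the A subunits and ACS were lower by like amounts, while in the mutants the lyase genes were lower and ACS differed by -0.04 and 0.00. At 40 mg/L WT looked like the mutants in this respect, since the changes in ACLA-1, ACLA-2 and ACLB-1 were below that in ACS by -0.31, -0.36 and -0.86. The size of the contrast between ACLA-1 or ACLA-2 and ACS depended on which line was included. Without the WT arrays the means were -0.66 for ACLA-1 and -0.60 for ACLA-2, and without the atnp01 arrays they were -0.30 and -0.28.

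**Figure D3:**
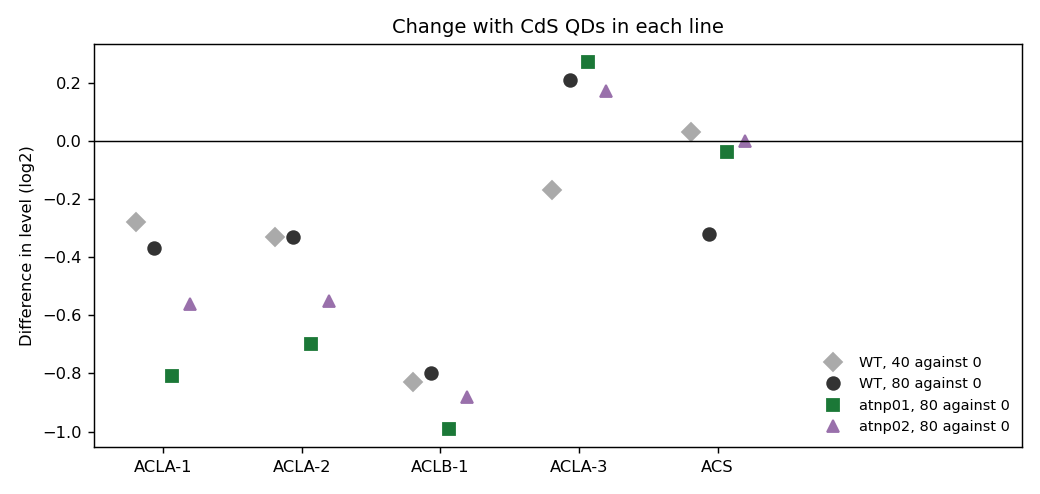
Difference in level from the unexposed array of the same line (log2, vertical axis) for each gene, 1 point per pair of arrays, for WT at 40 and 80 mg/L and each mutant at 80 mg/L. The ACLB-1 points lie between -0.99 and -0.80, the ACLA-3 points at 80 mg/L between 0.17 and 0.27, and the ACS points at or near 0 except for WT at 80 mg/L.

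Without exposure, the mutants and WT were close for all 4 genes. Against WT at 0 mg/L, atnp01 differed by 0.12 for ACLA-1, -0.18 for ACLA-2, -0.16 for ACLB-1 and 0.04 for ACS. For atnp02 the differences were 0.07, -0.09, -0.12 and 0.00. Among genes at the floor, those from the 5th to the 95th percentile lay between -0.34 and 0.31 for atnp01 and between -0.30 and 0.23 for atnp02, so all 4 genes were inside these ranges. None of the 4 was 2-fold apart, as were 0.603% of genes in atnp01 and 0.225% in atnp02.

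At 80 mg/L the lyase genes were lower in both mutants than in WT, and ACS was higher. ACLA-2 differed from WT by -0.55 in atnp01 and -0.31 in atnp02, ACLB-1 by -0.35 and -0.21, and ACLA-1 by -0.32 and -0.12. ACS was higher by 0.32 in each mutant, both differences being from the same WT array. The range from the 5th to the 95th percentile of genes at the floor was -0.36 to 0.38 in atnp01 and -0.41 to 0.36 in atnp02. Only ACLA-2 in atnp01 lay outside it, where 2.8% of those genes were lower, and ACLA-2, unlike the genes it is set against, was below the floor. For ACS, 92.7% and 93.4% of genes were lower. The share of genes 2-fold apart was 1.36% in atnp01 and 1.26% in atnp02, and none of the 4 was among them. Whether the response to dose differs between lines was not tested, as each response is 1 pair of arrays.

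**Figure D4:**
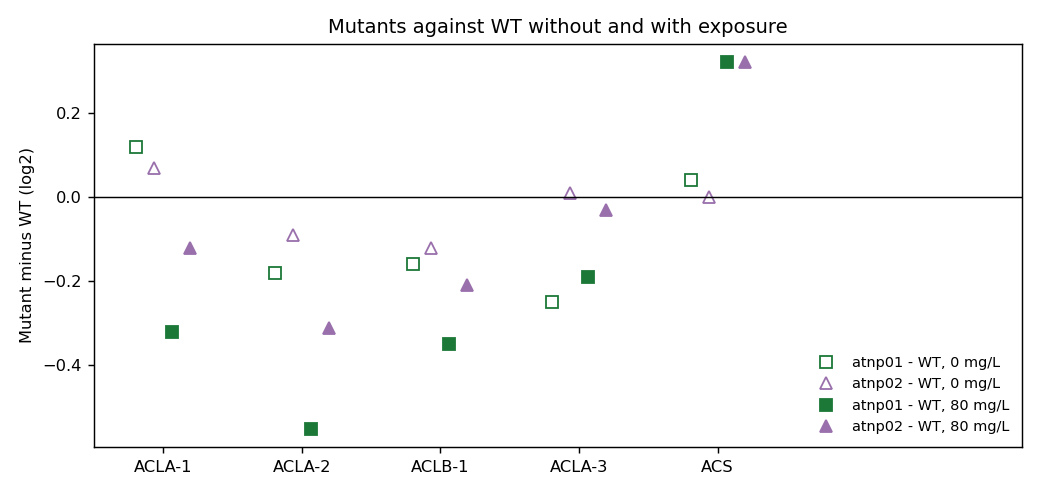
Mutant minus WT (log2, vertical axis) for each gene, 1 point per pair of arrays, with open symbols at 0 and filled symbols at 80 mg/L. At 80 mg/L the 3 lyase genes of the 4 lie below 0 in both mutants and ACS lies at 0.32 in both, while at 0 mg/L the points lie between -0.25 and 0.12.

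The genes around acetyl-CoA were read from 12 lists with 129 entries, 125 of them besides the 4 genes. The platform annotation named 24 of the 125, and 13 reached the floor, so most of the pathway is not covered. In the limma fit 6 of the 13 passed as lower at 80 mg/L, 3 as higher and 4 did not pass, where 29.3% of all genes fell and 27.8% rose. However, 3 of the 13 reached the floor only at the dose where they were higher, PDC2 at 80 mg/L and AT2G22230 and AT5G10160 at 0 mg/L, so these counts are partly set by the floor. Of the other 10 genes, which reached it at both doses, 4 fell, 2 rose and 4 did not pass. Among all 1624 genes that did so, 27.0% fell and 23.4% rose in the same fit. Without the atnp01 arrays the 6 became 3, because 2 of these genes no longer reached the floor and 1 lost its call.

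Upstream of the lyase, the mitochondrial dicarboxylate and tricarboxylate carrier gene AT5G19760, whose product can export citrate, fell by 0.73 (SE 0.07, limma adjusted p = 0.000279). It was at 8.36, 7.87 and 7.72 in WT at 0, 40 and 80 mg/L, at 8.35 and 7.55 in atnp01, and at 8.33 and 7.57 in atnp02, so the 3 exposed arrays at 80 mg/L were all below the 3 unexposed ones. Cytosolic NADP isocitrate dehydrogenase, cICDH, which uses the same citrate pool after aconitase, rose by 0.19 (SE 0.07, limma adjusted p = 0.045). This call was lost in 8 of 13 alternative fits, among them those without WT, without atnp01 and without atnp02.

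Among other sources of acetyl-CoA in plastids, AT2G34590, an E1 beta subunit gene of plastid pyruvate dehydrogenase, fell by 0.66 (SE 0.09, limma adjusted p = 0.00122), with changes of -0.42, -0.81 and -0.74 in WT, atnp01 and atnp02. It was the 1 gene tested of 7 entries for this complex. Its E3 subunit gene AT4G16155, just below the floor at 5.98 on its brightest array and so not tested at that floor, differed by -0.62 ± 0.33 (SD, 3 lines). Of 8 entries for the mitochondrial complex 2 were tested, and neither passed. The complexes were not tested against each other. MAB1, the E1 beta subunit, had a coefficient of -0.10 (SE 0.07, limma adjusted p = 0.251), and AT3G13930, an E2 subunit, of -0.02 (SE 0.07, limma adjusted p = 0.843).

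On the acetate route that ends at ACS, PDC2, a pyruvate decarboxylase gene, was at 4.81 in WT without QDs, 5.84 at 40 mg/L and 7.36 at 80 mg/L, at 5.01 and 7.42 in atnp01, and at 4.92 and 7.54 in atnp02. The difference at 80 mg/L was 2.53 ± 0.11 (SD, 3 lines), and the WT level stepped up at each dose, unlike that of ACLB-1. PDC2 was below the floor on all unexposed arrays and entered the fit through the exposed ones. In the fit of all 13286 genes with no floor, which does not select it, it rose with a limma adjusted p of 0.000186. ALDH2C4, an aldehyde dehydrogenase known for making ferulate and sinapate, had a coefficient of -0.18 (SE 0.07, limma adjusted p = 0.0732) and did not pass. It passed with arrays centred on bright genes, at -0.20 and an adjusted p of 0.0451, and its adjusted p was between 0.0451 and 0.241 over the 13 alternatives.

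Of 19 entries for plastid fatty acid synthesis 6 were annotated and 4 were tested. The 2 of these that reached the floor at both doses fell, where 27.0% of all such genes did. FATB, a thioesterase that releases saturated fatty acids, fell by 0.55 (SE 0.07, limma adjusted p = 0.000948), and AT1G24360, a ketoacyl-ACP reductase gene, by 0.26 (SE 0.08, limma adjusted p = 0.025). The call of AT1G24360 was lost in 4 of 13 alternative fits, namely without the atnp01 arrays, without the atnp02 arrays, with no floor (adjusted p = 0.0561) and with a linear dose term (0.0855). The hydroxyacyl-ACP dehydratase genes AT2G22230 and AT5G10160 reached the floor only without QDs, and they differed by -0.86 ± 0.17 and -0.38 ± 0.23 (SD, 3 lines). With no floor, AT2G22230 fell with a limma adjusted p of 0.00211 and AT5G10160 did not pass (0.0508). AT5G10160 did not pass with a linear dose term (0.0868) or without the atnp02 arrays (0.121) either, and both were below the floor without atnp01. AT2G22230 was at 6.22 and 5.21 in atnp01 and at 5.94 and 5.05 in atnp02. In WT it differed from the unexposed array by -0.81 at 40 mg/L and -0.67 at 80 mg/L, so that, as for ACLB-1, the whole difference was present at the lower dose.

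Of the pathways fed from the cytosol, AT1G31910, the phosphomevalonate kinase gene, had a coefficient of 0.08 (SE 0.07, limma adjusted p = 0.388). None of the 15 entries looked up for fatty acid elongation and wax was on the annotation, and the 1 annotated entry of 7 for flavonoids stayed below the floor. AIM1, a multifunctional enzyme of peroxisomal fatty acid oxidation, a route that yields acetyl-CoA, rose by 0.47 (SE 0.07, limma adjusted p = 0.00143), with changes of 0.48, 0.42 and 0.52 in WT, atnp01 and atnp02.

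**Figure D5:**
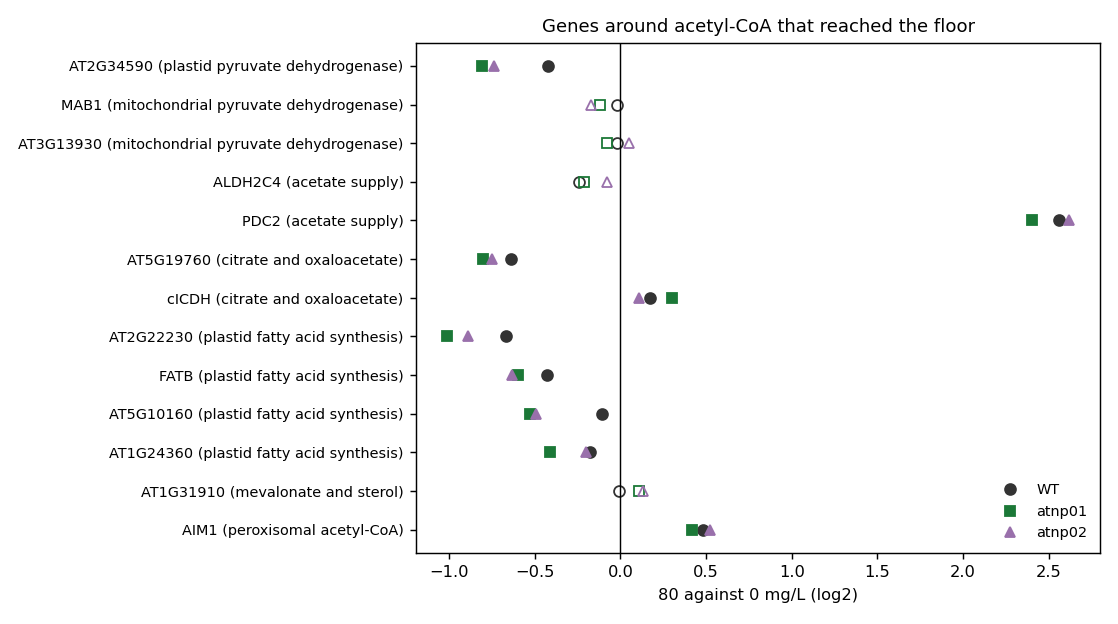
Difference between 80 and 0 mg/L (log2, horizontal axis) for the 13 genes around acetyl-CoA that reached the floor, with 1 point per line and the list of each gene in brackets. Filled symbols mark genes past an adjusted p of 0.05 in the limma fit, among them PDC2, AT2G22230 and AT5G10160, which reached the floor at 1 dose only. PDC2 lies between 2.40 and 2.62, and the 4 genes of plastid fatty acid synthesis lie below 0 in all lines.

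Profiles over the 7 arrays were compared as a description, and points of a profile share their arrays. The 3 lyase genes of the 4 resembled each other, with Pearson r of 0.96 for ACLA-1 and ACLB-1, 0.93 for ACLA-1 and ACLA-2 and 0.91 for ACLA-2 and ACLB-1, and ACS had r of 0.25, 0.00 and 0.23 with ACLA-1, ACLA-2 and ACLB-1. The further lyase gene ACLA-3 did not follow them, with r of -0.52, -0.33 and -0.41 in the same order. The 5 genes most like the mean lyase profile were GH9B7 (r = 0.996), an endoglucanase-family gene, AT3G15480 (0.995), TUA6 (0.995), which encodes an alpha-tubulin, AT5G12050 (0.994) and AT1G29470 (0.994). Among 2130 genes at the floor 211 had r of at least 0.9 with it, so such likeness was common. For ACS only 6 of 2131 reached that value, and the closest were AT4G14160 (r = 0.948), AT5G61220 (0.938), AT1G33780 (0.938), YKT61 (0.922), which encodes a membrane-fusion SNARE protein, and AT1G78200 (0.916). Apart from WT at 80 mg/L, at 6.14, all ACS values lay between 6.46 and 6.50. Likeness to ACS thus mostly reflects that 1 array, and the 6 and the 211 are not like measures.

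Some control and marker values moved with the lyase genes. Of 4 leaf markers 2 were annotated, and both LHCB4.2, of the light-harvesting antenna, and RCA, Rubisco activase, fell, by 0.79 and 0.14 (limma adjusted p = 9.87e-05 and 0.0372). Their summed linear level was 4158 to 4295 on unexposed arrays and 3435 to 3498 at 80 mg/L. The 1 annotated root marker of 2, PYK10, fell by 0.25 (limma adjusted p = 0.00806), with a linear level of 1442 to 1661 on unexposed arrays and 1204 to 1442 at 80 mg/L. In WT at 40 mg/L it was 1581, higher than on the unexposed WT array by 0.13 on the log2 scale, whereas the leaf sum was lower there, at 3778. No annotated marker was near 0. The reference genes GAPC2 and PEX4 had coefficients of -0.01 and 0.01. The 12 poly-A spike-in probe sets, which follow amplification, averaged -0.42 in WT at 80 mg/L relative to 0 mg/L. In atnp01 and atnp02 this difference was -0.78 and -0.45, and in WT at 40 mg/L it was -0.31, from mean levels between 3.27 and 3.66. These differences are of the size of those in ACLA-1 and follow the same order of lines. The spike-in levels were near or below the array medians of 3.39 to 3.48, though, while ACLA-1 was at 7.15 to 7.96. The 9 hybridization controls, added after amplification, were lower by smaller amounts, at -0.19 in WT at 80 mg/L, -0.19 in atnp01, -0.03 in atnp02 and -0.12 in WT at 40 mg/L. The GAPDH 3′ minus 5′ difference, a sign of RNA quality, was lower at 80 mg/L in WT, at -0.30, but higher in the mutants, at 0.32 for atnp01 and 0.21 for atnp02. For actin the same quantity shifted by -0.06, -0.01 and 0.37 in WT, atnp01 and atnp02. The quantity itself was large on all arrays, exposed or not, at 1.66 to 2.08 for GAPDH and 4.4 to 5.01 for actin. All arrays thus read the 3′ end more strongly than the 5′ end. The part of these controls and markers in the result was not tested.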

How the data were processed

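Values on a log2 scale were deposited for 22810 probe sets on 7 arrays, and per the submitters' processing notes the authors ran RMA in Affymetrix Expression Console 1.1. Background correction and probe-set definition are not stated in what was used here, so folds are nominal. Array medians were 3.39 to 3.48. The annotation gave 13513 non-control probe sets 1 gene and 503 several, and left 8730 unnamed. Of the 13513, 13436 matched the RefSeq gene table of TAIR10.1, used for names, giving 13286 genes, each represented by its brightest probe set. Genes reaching log2 6 on the arrays fitted were tested with limma 3.58.1 (R 4.3.3), with line and dose as terms. Benjamini-Hochberg adjustment was at 0.05, and the fit left 2 residual degrees of freedom. The variance of each gene was moderated towards an intensity trend over the genes tested. Its SE and p-value therefore do not rest on its own values alone. Tables were handled in pandas 2.3.3. On simulated data for 2098 genes, 93% of changes of log2 0.5 were recovered, with 4.5% false calls. The simulation changed 200 genes and drew independent noise at the variance the fit itself had estimated, with the same response in every line. In the data 29.3% of genes were lower and 27.8% higher, so these rates are not error rates for the real arrays. The 4 genes, the lists and the tests were chosen with earlier results of these data known. Of each list, up to 4 tested genes with the largest coefficients were named, and genes below the floor were named after their values were seen. Promoter motifs were not searched, as no sequences were used here. Precision is limited by the number of arrays.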

Additional observations from a re-analysis of the deposited data

Results flagged for a closer look

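In 6 of the 33 annotated genes of the pathway and marker lists, the response to 80 mg/L had opposite signs in different lines. This was not tested, because each response is 1 pair of arrays. Any change of sign counted, however close to no change. The share over all genes was not computed, so whether 6 is unusual is not known. The plastid-encoded gene accD, which encodes a subunit of the plastid acetyl-CoA carboxylase, was higher by 1.27 in WT and at differences of -0.06 in atnp01 and -0.60 in atnp02, a span of 1.87 between lines. Its probe set stayed below the floor. AT1G54220, a mitochondrial pyruvate dehydrogenase E2 gene, differed by 0.10, -0.12 and -0.11 in WT, atnp01 and atnp02, a span of 0.22. AT3G13930, another E2 gene, had a span of 0.13 and AT1G31910, the phosphomevalonate kinase gene, of 0.14. For the reference genes GAPC2 and PEX4 the spans were 0.12 and 0.27, so the spans of the other 3 were no larger than that of PEX4.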

How the results depend on the processing

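No group had replicates. The arrays at 0 and 80 mg/L were paired by line, and line was a term of the fit; without that term 6 pathway genes were lower and 3 higher, as with it. Taken over the lines, the changes of the 4 genes and of ACLA-3 at 80 mg/L, and their contrasts, kept their direction in all alternatives tried. They moved by less than the SD over lines, except ACLA-3, at 0.14 when WT at 40 mg/L was added to the exposed arrays. For most alternatives the size of the move could not have failed this measure. In this design, dropping the line term or fitting a linear dose returns the same coefficients. Leaving out 1 of 3 lines cannot move their mean by as much as their SD. Only loess, centring and the added WT array at 40 mg/L were open to a larger move. Leaving out 1 line gave -0.93 to -0.84 for ACLB-1, -0.68 to -0.46 for ACLA-1, -0.62 to -0.44 for ACLA-2 and -0.18 to -0.02 for ACS. Loess normalization or centring moved no single-array difference of the 4 genes by over 0.08. The sign of the small ACS changes in the mutants was not kept. In atnp01 the change was -0.04 as deposited and 0.01 with loess, and in atnp02 it was 0.03 with loess and -0.04 with centring. Over all genes, 614 were lower and 583 higher. With no floor these counts were 1300 and 1255, with a floor at log2 5 979 and 927, and at log2 7 314 and 306, as more or fewer genes were tested. Among genes that reached the floor at both doses, a restriction chosen after seeing the data, 439 were lower and 380 higher. A linear dose term gave 384 lower genes, and leaving out a line gave 373 to 622 lower and 421 to 552 higher genes. Of the pathway genes, 3 to 6 were lower when a line was left out, and 5 were higher with a floor at log2 5. None of the 5 genes most like the lyase profile by Pearson r, and 2 of the 5 most like ACS, stayed among the first 5 by Spearman rho. The floor at log2 6 keeps dim genes such as ACLA-2 out of the fit.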

Other observations

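DFR, ICL and CPI1, of the pathways that use or make acetyl-CoA, are among 11 annotated pathway genes below the floor. Their levels at 0 and 80 mg/L did not overlap, nor did those of ACLA-3 and AT4G16155. Of all annotated genes, 18.5% lay below in this way and 14.8% above. DFR, ICL and CPI1 were not tested in the fit with the floor at log2 6 and are named here after their values were seen. The fit with no floor held them, but its results for them are not given here. DFR, of anthocyanin synthesis, was at 3.66 in WT without QDs, 5.74 at 40 mg/L and 4.70 at 80 mg/L. It was at 2.71 and 5.09 in atnp01 and at 2.65 and 4.35 in atnp02, so the unexposed mutants lay lower than unexposed WT. ICL, isocitrate lyase of the glyoxylate cycle, was at 2.48, 3.82 and 2.69 in WT, and at 2.24 and 2.87 in atnp01 and 2.25 and 3.34 in atnp02. Its values at 0 and 80 mg/L all lay below the array medians of 3.39 to 3.48. Both DFR and ICL were highest in WT at 40 mg/L rather than at 80 mg/L. CPI1, of sterol synthesis, differed by -0.70 ± 0.06 at 80 mg/L (SD, 3 lines) and by -0.81 in WT at 40 mg/L. The thioesterase genes FaTA and AT4G13050, at -0.25 ± 0.25 and -0.28 ± 0.17, overlapped between doses.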
